A study of Drosophila melanogaster with 36 samples.

Results

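The cullins are the scaffolds of a large family of ubiquitin ligases, and 8 of their genes were followed in fly thoraxes: the scaffolds Cul1 (CG1877), Cul2 (CG1512), Cul3 (CG11861), Cul4 (CG8711) and Cul5 (CG1401), the RING subunit Roc1a (CG16982), the adaptor SkpA (CG16983) and the modifier Nedd8 (CG10679). They were taken by identifier from the 13820 gene identifiers of the table, and all 8 had enough values to be tested. Cul2 was chosen by its log2 differences between the genotypes, which an earlier look at these data had found raised at day 2 only, so they are given below as a description with no test. The other 7 genes were taken by name as parts of the same machinery.

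A cullin ligase is built around an elongated cullin protein. One end of the cullin holds the RING subunit, which brings in the ubiquitin-conjugating enzyme, and the other end holds an adaptor with an exchangeable receptor that recognises the substrate. Attachment of the small ubiquitin-like protein Nedd8 to the cullin switches the ligase on, and the COP9 signalosome removes Nedd8 again. Substrates that receive a ubiquitin chain in this way are mostly degraded by the proteasome, the main route by which muscle removes regulatory and damaged proteins.

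RNA from whole thoraxes was measured on 36 two-colour arrays. Control flies were Mhc-Gal4/+, and flies expressing PABPN1-17ala, the alanine-expanded nuclear poly(A) binding protein of oculopharyngeal muscular dystrophy, were UAS-PABPN1-17ala/+; Mhc-Gal4/+. Both genotypes thus carry the Mhc-Gal4 driver, which acts in muscle and not in the other tissues of the thorax, and both were sampled at days 2, 6 and 11. Each of the 6 conditions has 6 arrays, of which 3 carry the fly RNA in Cy5 and 3 in Cy3, against a common reference pooled from control flies at day 2. The series describes 3 extracts of 50 thoraxes per condition, but how these extracts were split over the dyes is not given in the sources used here. The 3 arrays of a dye were therefore the replicates, and p-values measure the spread between them. Values are log2 ratios of sample over reference, so that 0 is the level of the reference pool, and a ratio says nothing on whether one gene is more abundant than another. The arrays of young control flies need not average 0, and for Cul2 their mean was -0.26. That these are base-2 logs with the sample on top was inferred. The direction rests on GstD1, a detoxification gene, whose ratios at day 2 ran from 2.27 to 2.53 in PABPN1-17ala flies and from -0.17 to 0.46 in control flies. A GstD1 reporter was brighter in muscles of such flies in the study. In RNA from whole thoraxes, fewer cells of a type and less RNA per cell cannot be told apart.

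Limma called 131 of 13791 genes (0.950%) at day 2, 221 (1.60%) at day 6 and 163 (1.18%) at day 11 between the genotypes, at an adjusted p below 0.05. The p that was adjusted was the larger of both dyes, and opposite signs on the dyes could not pass. The 7 flight muscle markers tested had median log2 fold changes of PABPN1-17ala over control of 0.09, -0.17 and -0.31 at the successive ages. At day 6 they ran from -1.84 for TpnC4, a flight muscle troponin C that was called lower, to 0.30 for Mlc2. None of the others was called at a single day. The labels of PABPN1-17ala replicate 1, day 2, disagree on its genotype. It was used as PABPN1-17ala, as most of them say, and the value of Cul2 at that day is also given without it.

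Cul2, whose ligases use the elongin B and C adaptor and receptors such as Vhl, had its highest mean ratio in young PABPN1-17ala flies and its lowest in old ones. At day 2, the log2 ratios of Cul2 in PABPN1-17ala flies were 0.38, 0.82 and 0.93 on Cy5 arrays and 0.91, 1.29 and 1.14 on Cy3 arrays. In control flies of that age, they were -0.61, -0.26 and -0.27 on Cy5 arrays and -0.42, 0.11 and -0.12 on Cy3 arrays. The genotypes did not overlap on either dye, and 6 of 6 PABPN1-17ala arrays lay above every control array of their dye, as they did for 1.91% of all genes tested. Their log2 fold change was 1.17, or 2.26-fold, with 1.09 on Cy5 (standard error 0.122) and 1.25 on Cy3 (0.141). Without the array of doubtful label, which had the lowest of the 6 ratios, it was 1.26. Cul2 is the one member among the genes called higher at day 2, which make up 0.667% of all genes, and nothing follows from this because the contrast chose it.

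At day 6, the ratios of Cul2 in PABPN1-17ala flies had come down to 0.14, 0.32 and 0.11 on Cy5 arrays and 0.41, 0.19 and 0.32 on Cy3 arrays. Those of control flies lay between -0.03 and 0.13 on both dyes. All 6 PABPN1-17ala arrays were above the controls of their dye, as for 5.78% of all genes at that day, but by a log2 fold change of only 0.22. At day 11, the ratios of PABPN1-17ala flies were below 0 on every array, at -0.58, -0.51 and -0.45 on Cy5 and -0.03, -0.27 and -0.50 on Cy3. Control flies ran from -0.02 to 0.12 on Cy5 arrays and from -0.14 to 0.18 on Cy3 arrays. PABPN1-17ala flies differed from them by -0.41, with -0.55 on Cy5 and -0.26 on Cy3, and 5 of 6 arrays lay below all controls of their dye. The share of all genes with 5 of 6 arrays apart was not counted. The genotype difference thus moved by -1.58 between day 2 and day 11 and by -0.96 between day 2 and day 6.

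Ordered by the mean of both dyes, the 6 conditions ran from PABPN1-17ala at day 2 (0.91), through PABPN1-17ala at day 6 (0.25), control at day 6 (0.03), control at day 11 (0.02) and control at day 2 (-0.26), to PABPN1-17ala at day 11 (-0.39). The first of these conditions was apart from the second, and the second from the third, on both dyes. Each of the later neighbours overlapped on 1 or both dyes. Within PABPN1-17ala flies alone, Cul2 fell by 0.66 from day 2 to day 6 and by 1.30 from day 2 to day 11. In control flies the gene stood 0.29 higher at day 6 and 0.28 higher at day 11 than at day 2, and these differences share the control arrays of day 2 with the choice of Cul2.

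A spot for the Gal4 coding sequence shares the direction of Cul2 at days 2 and 6. The Gal4 ratio of PABPN1-17ala flies exceeded that of control flies by 1.01 at day 2, by 0.43 at day 6 and by 0.01 at day 11. In both genotypes it was far below the reference at day 11, with ratios from -2.87 to -0.53. Whether the driver or the muscle markers have a part in the values of Cul2 was not tested.

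**Figure D1:**
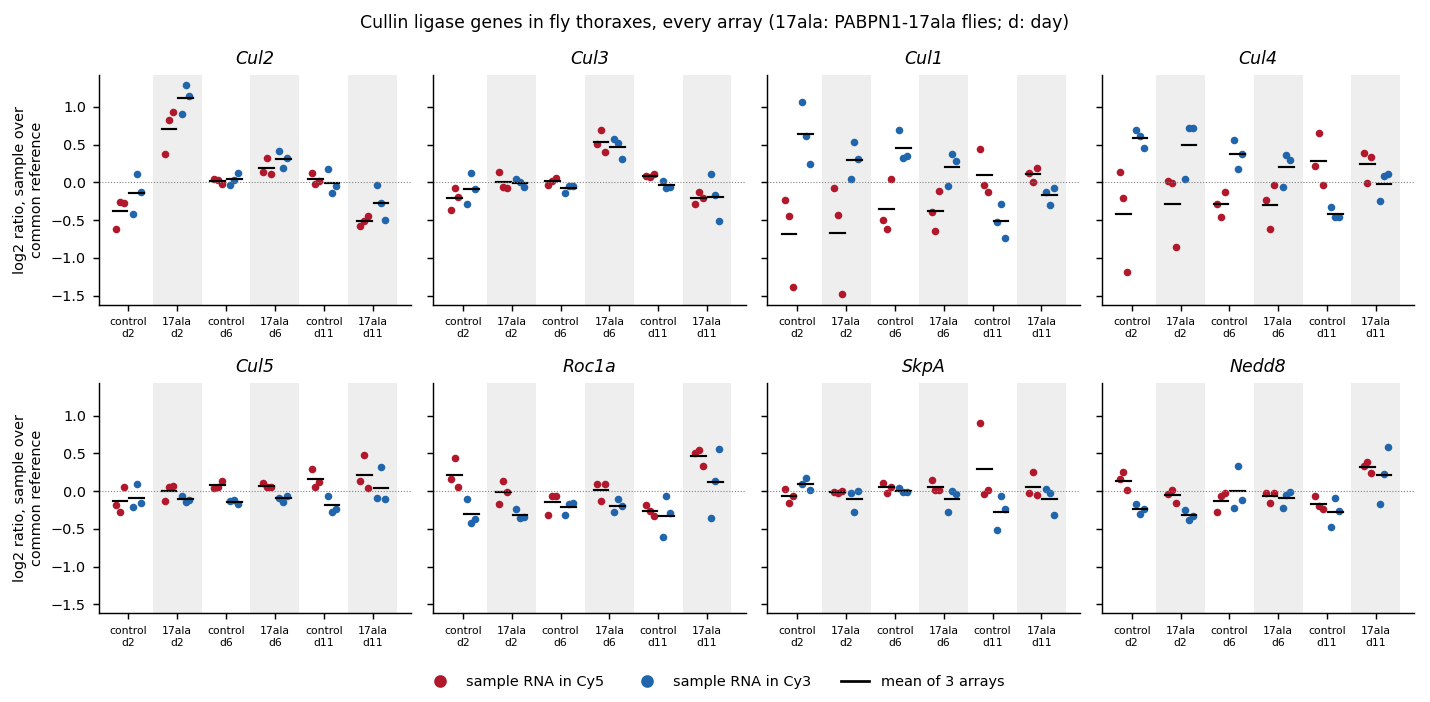
Log2 ratio of sample over common reference (y axis) for the 8 cullin ligase genes on every array, by genotype and age (x axis), with red points for Cy5, blue points for Cy3 and black bars for the mean of 3 arrays; grey bands mark PABPN1-17ala flies. Cul2 stands highest in PABPN1-17ala flies at day 2 (0.38 to 1.29) and Cul3 at day 6 (0.31 to 0.69), while the dye means of Cul1 and Cul4 lie on opposite sides of 0 in each of the 6 conditions.

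Cul3 assembles with BTB-domain receptors, among them the oxidative stress sensor Keap1, and was the only member apart from Cul2 that was called between the genotypes at any day. It was up-regulated at day 6. Its log2 ratios at that age were 0.51, 0.69 and 0.40 on Cy5 arrays and 0.57, 0.52 and 0.31 on Cy3 arrays in PABPN1-17ala flies. In control flies, they were -0.04, 0.02 and 0.06 on Cy5 arrays and -0.14, -0.05 and -0.05 on Cy3 arrays. The groups did not overlap on either dye, which held for 5.78% of all genes at that day in this direction. The log2 fold change of Cul3 was 0.53, or 1.45-fold, with a standard error of 0.089 on Cy5 and 0.126 on Cy3 (limma, adjusted p = 0.0377; 0.103 without moderated variances). Genes called higher at day 6 make up 0.935% of all genes tested. Leaving out 1 of the 12 arrays compared kept the log2 fold change between 0.49 and 0.57, but the call was lost for 5 of them, control replicates 4, 5 and 6 and PABPN1-17ala replicates 4 and 5 (adjusted p from 0.102 to 0.175).

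At the other ages Cul3 differed less. At day 2, its log2 fold change was 0.14, and at day 11 it was -0.22, with an adjusted p of 1 for both by limma. Within PABPN1-17ala flies, all 6 arrays of day 6 were above those of day 2 of their dye, with a log2 difference of 0.50 (limma, adjusted p = 0.0842, a comparison added after the data were seen). Such a separation held for 4.68% of all genes, and 1.78% were called between these ages. The difference between the genotype effects at day 6 and day 2 was 0.39 and did not pass (adjusted p = 1). By limma 0 of the 7 members other than Cul2 were called for that difference, beside 0.239% of all genes, and 1, Cul3, had an unadjusted p below 0.05, beside 2.12%. The array holds a second identifier that the current annotation joins to Cul3. Its log2 fold change was -0.01 at day 6, where its ratios in PABPN1-17ala flies lay between -0.10 and 0.10, so the identifiers of Cul3 disagree on the change at that day. The call of Cul3 therefore rests on 1 of 2 identifiers, and which transcripts each probe reads was not analysed here.

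**Figure D2:**
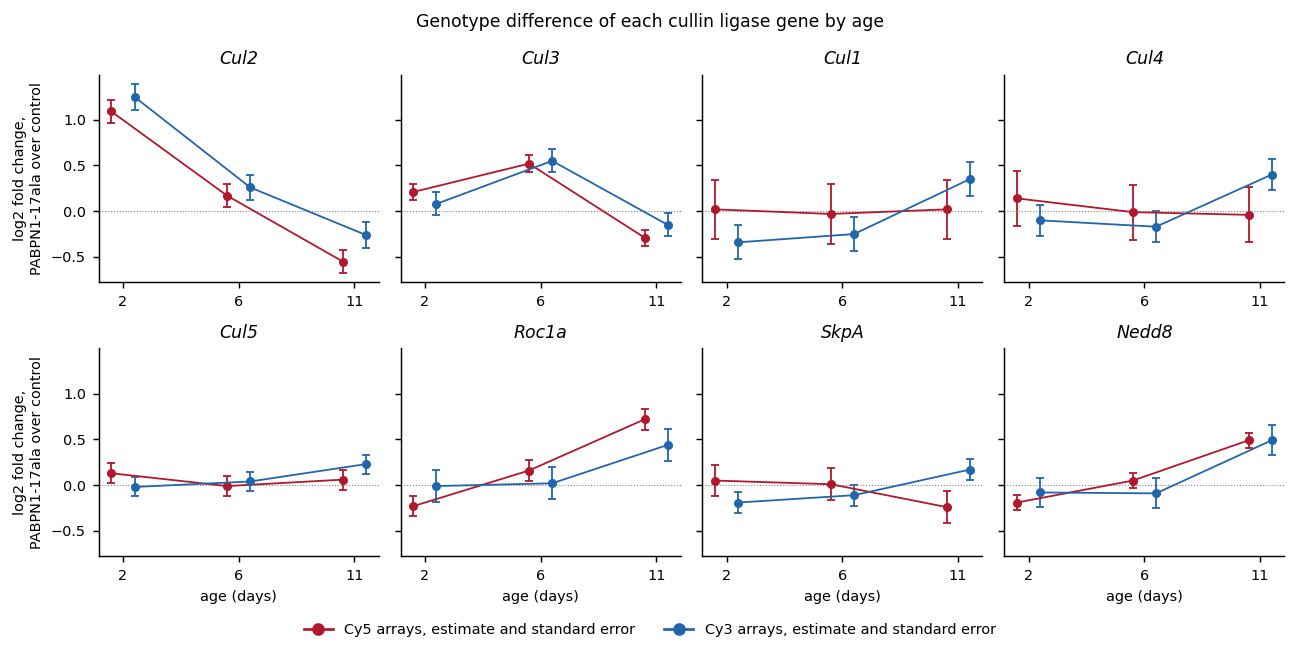
Log2 fold change of PABPN1-17ala over control (y axis) at days 2, 6 and 11 (x axis) for each member, with the estimate of limma and its standard error on Cy5 (red) and Cy3 arrays (blue). Cul2 goes from 1.17 to -0.41 as the mean of both dyes, Cul3 peaks at 0.53 at day 6, and Roc1a and Nedd8 stand at 0.58 and 0.49 at day 11, where neither was called.

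The RING subunit Roc1a, which holds the conjugating enzyme in most cullin ligases, and Nedd8 had their highest mean ratios of the 6 conditions in PABPN1-17ala flies at day 11 (0.29 and 0.27 over both dyes). For Nedd8, these were 0.34, 0.39 and 0.24 on Cy5 arrays and -0.17, 0.23 and 0.58 on Cy3 arrays. Control flies of day 11 had -0.07, -0.19 and -0.23 on Cy5 arrays and -0.48, -0.09 and -0.26 on Cy3 arrays. All PABPN1-17ala arrays but replicate 4, the lowest, were above every control of their dye, and the share of all genes with as many was not counted. Nedd8 differed by 0.49 on each dye and was not called (limma, adjusted p = 0.283).

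Roc1a gave 0.50, 0.55 and 0.34 on the Cy5 arrays and -0.35, 0.14 and 0.56 on the Cy3 arrays of PABPN1-17ala flies at day 11. The control ratios were -0.18, -0.26 and -0.33 on Cy5 and -0.61, -0.07 and -0.29 on Cy3. Here too replicate 4 was the lowest of the 6 PABPN1-17ala arrays, and control replicate 4 was the lowest control array for both genes. Roc1a differed by 0.58, with 0.72 on Cy5 and 0.44 on Cy3, and was not called (adjusted p = 0.554). Of the 7 members other than Cul2, these 2 had an unadjusted p below 0.05 at day 11 by limma, and 5.99% of all genes did. Without PABPN1-17ala replicate 4, both genes passed, Nedd8 with 0.58 (adjusted p = 0.0178) and Roc1a with 0.70 (adjusted p = 0.0174). Leaving out any of the other 11 arrays compared called neither, with an adjusted p of at least 0.214 for Nedd8 and 0.299 for Roc1a. Leaving that array out also raised the genes called at day 11 from 59 lower and 104 higher to 254 lower and 205 higher. At days 2 and 6 the log2 fold changes of both genes lay between -0.14 and 0.09.

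SkpA is the adaptor that ties F-box receptors to Cul1. Its start lies next but one to that of Roc1a on the X chromosome, with 1 gene between them, yet its log2 fold changes were -0.07 at day 2, -0.05 at day 6 and -0.03 at day 11. Of its 36 ratios, the highest was 0.90 on control replicate 1 at day 11, where the other Cy5 controls had -0.04 and 0.02. Cul5, which like Cul2 uses the elongin adaptor, changed by 0.05, 0.02 and 0.14 at the 3 days. For both genes the standard errors on a dye, 0.104 to 0.173, were as large as most of these changes, and each had an adjusted p of 1 at every day. The rule for p fixed this value where the dyes had opposite signs. That was so for SkpA at all 3 days, with -0.24 on Cy5 and 0.17 on Cy3 at day 11, and for Cul5 at days 2 and 6. There the mean of both dyes partly cancels, and the adjusted p is no sign of an unchanged gene.

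Cul1, the scaffold of the F-box ligases, and Cul4, the scaffold that binds the adaptor pic, could not be read in the same way because their ratios turned with the dye. In control flies at day 2, which are compared with a pool of their own RNA, the mean ratio of Cul1 was -0.69 on Cy5 arrays (SD 0.61, n = 3) and 0.64 on Cy3 arrays (SD 0.41, n = 3). A gap between the dyes of this size or larger, -1.33, was found for 1.25% of all genes. For Cul4, the means were -0.42 (SD 0.69, n = 3) and 0.59 (SD 0.13, n = 3), a gap of -1.01 that 1.96% of genes reached. Both genes kept Cy5 below Cy3 at day 6 and turned at day 11, when Cy5 was 0.61 above Cy3 for Cul1 and 0.70 above for Cul4 in control flies.

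The gap was of a similar kind in both genotypes. In PABPN1-17ala flies it was -0.96 at day 2, -0.59 at day 6 and 0.27 at day 11 for Cul1, and -0.77, -0.49 and 0.26 for Cul4. Replicate 3, a Cy5 array, had the lowest ratio of both genes at day 2 in both genotypes, with -1.38 in control and -1.48 in PABPN1-17ala flies for Cul1 and with -1.19 and -0.86 for Cul4. With the dyes fitted apart, the genotype differences of Cul1 were -0.16, -0.14 and 0.18 at days 2, 6 and 11, and those of Cul4 were 0.02, -0.09 and 0.18. The standard errors on Cy5 arrays, 0.325 for Cul1 and 0.300 for Cul4, were the largest among the members, and a log2 fold change of 0.53, as found for Cul3, is less than 2 of them. The change with age was opposite on the dyes: from day 2 to day 11 in control flies, Cul1 differed by 0.78 on Cy5 arrays and by -1.16 on Cy3 arrays, and Cul4 by 0.70 and -1.01.

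Averaged over both dyes, the members differed little with age in control flies, but for some of them opposite changes on the dyes cancel in this mean. From day 2 to day 11, SkpA differed by 0.36 on Cy5 and by -0.36 on Cy3 arrays. Cul1, Cul4 and Cul5 (0.29 and -0.10) were also opposite on the dyes. From day 2 to day 6, SkpA, Cul1, Cul4 and Cul5 were again opposite, and so were Roc1a (-0.36 and 0.09) and Nedd8 (-0.26 and 0.23). Genes with opposite signs could not pass by the rule for p. Their change with age could not be read there, and the lack of a call says nothing on them. By limma 0 of the 7 members other than Cul2 were called at day 6 or at day 11 against day 2, 0 had an unadjusted p below 0.05 there, and the log2 differences over both dyes lay between -0.14 and 0.11 at day 6 and between -0.25 and 0.17 at day 11. For comparison, 0.580% of all genes were called at day 6 and 1.55% at day 11, and 3.39% and 5.39% had an unadjusted p below 0.05.

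The wider pathway was described through 13 lists with 81 gene symbols, of which 79 were on the array as 83 identifiers. Setting the members and the second Cul3 identifier aside, 74 identifiers remained. Their median log2 fold change was -0.01 at day 2, 0.01 at day 6 and 0.04 at day 11, against -0.01, -0.01 and 0.03 for all genes tested. At each day 1 of the 74 was called, always higher, which were Socs36E at days 2 and 6 and SkpB at day 11. This is 1 of 74 beside 0.950%, 1.60% and 1.18% of all genes.

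Socs36E encodes a SOCS-box protein that dampens JAK/STAT signalling, and SOCS-box proteins join cullin ligases through the elongin adaptor. At day 2, its log2 ratios were 0.19, 0.84 and 0.80 on Cy5 arrays and 0.61, 1.16 and 0.72 on Cy3 arrays in PABPN1-17ala flies. In control flies they were -0.03, -0.30 and -0.14 on Cy5 arrays and -0.12, 0.18 and -0.05 on Cy3 arrays. The genotypes did not overlap on either dye, as for 1.91% of all genes in this direction. Socs36E thus differed by 0.80 at day 2 (limma, adjusted p = 0.0272). At day 6 the ratios were 0.90, 1.33 and 1.08 on Cy5 arrays and 1.30, 1.05 and 1.59 on Cy3 arrays, while control flies stayed between -0.12 and 0.03. At that age the difference was 1.23, or 2.35-fold (adjusted p = 0.00122), and this call held when any of the 12 arrays was left out. The call of day 2 was lost for 5 of 12 left-out arrays (adjusted p from 0.0502 to 0.162), which were all 3 Cy5 controls and PABPN1-17ala replicates 2 and 3, in the fit of only the conditions compared (0.276) and without moderated variances (0.0993). The genotype difference of Socs36E at day 6 exceeded that at day 2 by 0.43, which was not called (adjusted p = 1). At day 11 the difference was 0.05.

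SkpB is a Skp1-like gene related to SkpA, and it fell from day 2 to day 11 in control flies, while the difference between these ages was -0.05 in PABPN1-17ala flies (limma, adjusted p = 1, a comparison added after the data were seen). The dyes had opposite signs in that comparison, with -0.14 on Cy5 and 0.03 on Cy3, so it could not pass by the rule for p. Control ratios at day 2 were 0.10, 0.27 and -0.26 on Cy5 arrays and -0.09, -0.23 and -0.39 on Cy3 arrays. At day 11 they were -1.01, -1.43 and -1.35 on Cy5 arrays and -1.0, -1.21 and -1.12 on Cy3 arrays. The fall in control flies was -1.09 on the log2 scale (limma, adjusted p = 0.0009), with no overlap between the ages, which held for 2.58% of all genes in this direction. PABPN1-17ala flies at day 11 had -0.57, -0.38 and -0.51 on Cy5 and -0.77, -0.20 and -0.45 on Cy3, above every control of that age, as 2.04% of all genes were. The genotype difference of SkpB was -0.33 at day 2 (adjusted p = 1) and 0.70 at day 11 (adjusted p = 0.0177), and the difference between these days, 1.03, was called, as for 0.290% of all genes (adjusted p = 0.0419). That last call held for 9 of 24 arrays left out in turn and was lost without moderated variances (0.151), with each array centred on its median (0.0657) and after quantile normalization within a dye (0.79, adjusted p = 0.478). The call at day 11 was lost for 6 of the 12 arrays when left out, control replicates 2, 5 and 6 and PABPN1-17ala replicates 2, 5 and 6, in the fit of only the conditions compared (adjusted p = 0.561), without moderated variances (0.0679) and after quantile normalization, which gave 0.50 (adjusted p = 0.508).

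With the 3 days averaged, Fem-1, a substrate receptor of Cul2 known from worm and mammals, was higher by 0.16 (limma, adjusted p = 0.0345), and Myc, a growth regulator that the F-box protein ago marks for degradation, by 0.17 (adjusted p = 0.0499). Both changes are small, 1.12-fold. At days 2, 6 and 11 the log2 fold changes were 0.27, 0.20 and 0.03 for Fem-1 and 0.12, 0.30 and 0.08 for Myc, and none was called at a single day. For Fem-1 the dyes had opposite signs at day 11, with -0.09 on Cy5 and 0.14 on Cy3. The call of Fem-1 held for 23 of 36 arrays left out in turn, and the 13 whose loss ended it were all Cy5 arrays (adjusted p from 0.0511 to 0.0825). That of Myc held for 4 of 36 (adjusted p from 0.0501 to 0.115 for the others), and it was lost without moderated variances (0.062), with centred arrays (0.076) and after quantile normalization (0.0628). Called genes with the days averaged make up 3.18% of all genes. Of the 7 members other than Cul2, limma called 0 in this average, and 1, Cul3, had an unadjusted p below 0.05, as did 7.71% of all genes.

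In the receptor, conjugation and signalosome lists no further gene was called between the genotypes. Among the 12 F-box receptors, the largest difference was that of slmb, the receptor for phosphorylated arm, ci and cact, with 0.51 at day 6 (adjusted p = 0.1203). The 10 identifiers of BTB receptors of Cul3, with rdx under both CG12537 and CG9924, had medians of -0.01, -0.04 and -0.01 at days 2, 6 and 11. Their partner scaffold was the one called at day 6. Keap1 itself differed by 0.14 at day 6 (adjusted p = 1). Among the 9 signalosome genes, the largest difference was 0.58 for CSN8 at day 2 (adjusted p = 0.302). From day 2 to day 11 in control flies, 2 of the 74 identifiers were called higher and 2 lower, with SkpB among the latter. EloB, an elongin adaptor of Cul2 and Cul5, was higher by 0.54 (adjusted p = 0.0144) and cnc, the stress factor that Keap1 holds in check, by 1.02 for 1 of its identifiers (adjusted p = 0.0045).

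**Figure D3:**
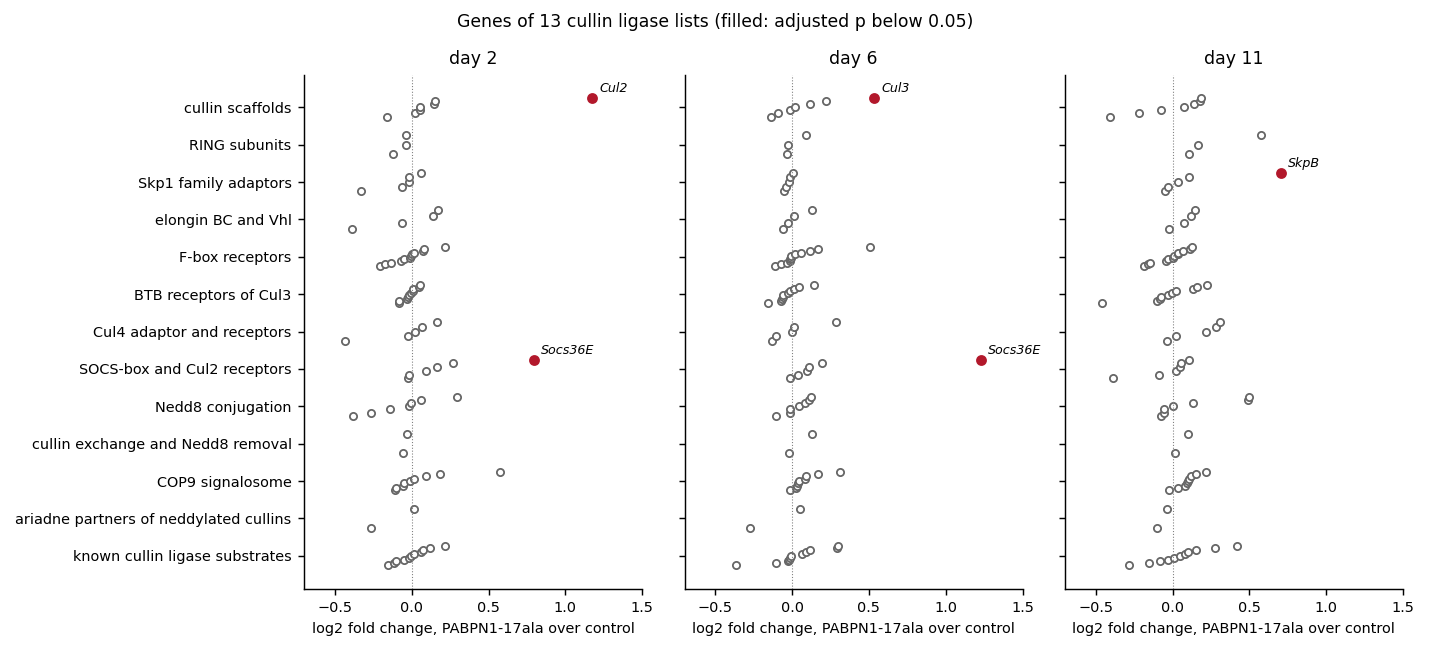
Log2 fold change of PABPN1-17ala over control (x axis) at days 2, 6 and 11 for each identifier of the 13 lists (rows); filled red points have an adjusted p below 0.05 and open points do not. The filled points are Cul2 (1.17) and Socs36E (0.80) at day 2, Cul3 (0.53) and Socs36E (1.23) at day 6 and SkpB (0.70) at day 11.

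The genes whose values were most like those of Cul2 were found by the smaller of the Pearson correlations over the 18 Cy5 and the 18 Cy3 arrays, among 13126 genes with all values. They were Pino (0.921), CG8026 (0.898), net (0.893), CG3907 (0.877) and CG8034 (0.864). The arrays share the reference and fall into 6 conditions, so these correlations describe a common pattern over conditions, and neither Pino nor the others belong to the 13 lists. Since they were picked for their likeness to Cul2, their genotype differences are a description too. Pino changed the most, with log2 fold changes of 2.86 at day 2, 0.82 at day 6 and -0.41 at day 11. For the other 4 genes, the differences at day 2 were 0.66 for CG8026, 0.49 for net, 0.85 for CG3907 and 0.46 for CG8034. At day 11 the means of both dyes for these 4 genes lay below 0, between -0.28 and -0.06. The dyes differed, with values from -0.42 to -0.21 on Cy5 and from -0.15 to 0.09 on Cy3, where CG8034 was above 0. Pino at that day had -0.79 on Cy5 and -0.02 on Cy3. On every one of the 5 genes, 6 of 6 PABPN1-17ala arrays at day 2 were above the controls of their dye, as for 1.91% of all genes.

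**Figure D4:**
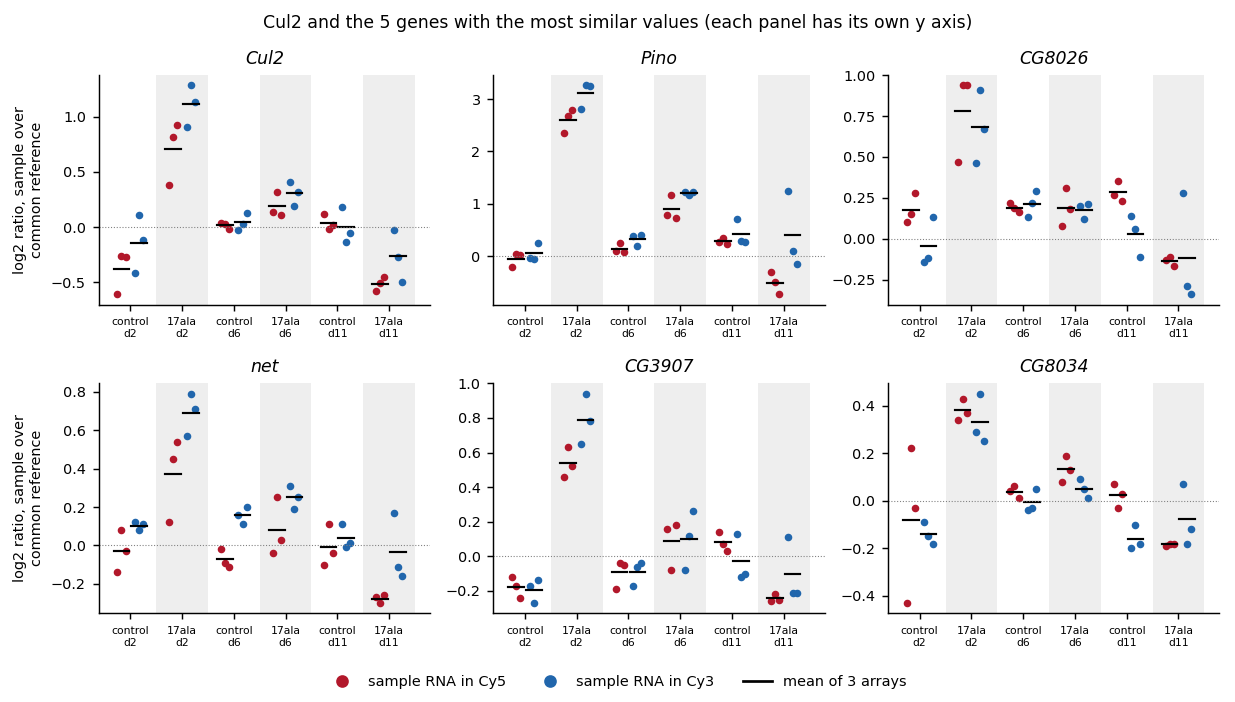
Log2 ratio of sample over common reference (y axis, with a scale of its own in each panel) for Cul2 and the 5 genes most like it, by genotype and age (x axis); red points are Cy5, blue points Cy3 and black bars the mean of 3 arrays. In each panel the mean of both dyes is highest in PABPN1-17ala flies at day 2, with a log2 fold change of 1.17 for Cul2 and 2.86 for Pino.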

How the data were processed

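RNA of fly thoraxes was compared on 36 two-colour arrays with a common reference. The deposited values are log ratios that the authors normalized, read here as log2 of sample over reference. The log base, background correction and normalization are not given in the sources used here, and signal intensities were not used, so the number of arrays limits the precision. Of 13843 lines, 13820 carry a gene identifier, 13389 of which were paired with a symbol in the RefSeq annotation of the fly. Limma 3.58.1 in R 4.3.3 tested the 13791 genes that had 2 or more values per dye in every condition. The 18 arrays of a dye were fitted apart from the others, with a mean for each condition. The dyes' log2 fold changes were averaged and the larger p was kept, set to 1 for opposite signs and adjusted across the whole table (Benjamini-Hochberg, threshold 0.05). The procedure was tested on simulated data. Named are all members, each listed gene called in a genotype comparison, the 5 genes most like Cul2 and GstD1. Listed genes called with age in control flies, and Keap1, slmb, CSN8 and TpnC4, were named after their values were seen. The result of 1 listed gene is not reported here. The members and the lists were chosen with earlier results of these data known. Alternatives were a single fit of both dyes, single dyes, blocking on the replicate number, fitting only the conditions compared, no moderation of variances, 2 normalizations, 2 filters, a threshold of 0.01 and leaving out single arrays. Their use on the count of listed genes was added after the data were seen.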

Additional observations from a re-analysis of the deposited data

Results flagged for a closer look

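Among 78 sets of 6 arrays, pooled over both dyes, 5 held an array far from the other 5. Chance gives this to about 1 set in 20 where the 6 values share a distribution. Gaps between the dyes, such as -1.33 for Cul1 in control flies at day 2, break this condition and can hide such arrays. SkpA had -0.27 on PABPN1-17ala replicate 5 at day 2, where the nearest other array had -0.03. The second identifier of Cul3 had -0.60 on control replicate 2 at day 2 and 1.39 on control replicate 1 at day 11. Socs36E had -0.27 on PABPN1-17ala replicate 2 at day 11, and Fem-1 had 0.01 on control replicate 4 at day 6.

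The genotype difference changed between ages for 2 genes. That of Cul2 moved by -1.58 from day 2 to day 11, which is a description because the gene was chosen for this pattern. That of SkpB moved by 1.03 (limma, adjusted p = 0.0419), a call that held for 9 of 24 arrays left out in turn (adjusted p from 0.0506 to 0.133 for the other 15) and that was lost without moderated variances (0.151), with centred arrays (0.0657) and after quantile normalization (0.79, adjusted p = 0.478).

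Outside the fly genes, the spot for Gal4 was 1.01 higher in PABPN1-17ala than in control flies at day 2, above all controls of its dye on 6 of 6 arrays, although both genotypes carry the driver.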

How the results depend on the processing

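No called value changed its direction under any alternative. The counts of members below include Cul2, whose calls are no test because its genotype differences chose it. The number of members called at day 2 was 1, Cul2, and 0 where only the conditions compared were fitted. At day 6 it was 1, and 0 without moderated variances or at a threshold of 0.01, and 0 to 1 with an array left out. At day 11 it was 0, but 3 with both dyes in a single fit, 4 on Cy5 arrays alone, where 1716 of all genes were called, and 0 to 2 with an array left out. With the days averaged it was 0, but 2 in the single fit, 1 on Cy3 arrays alone and 0 to 1 with an array left out. Where members were called in this average, Cul2 was among them. The difference between days 11 and 2 called 1 member, Cul2, and 4 in the single fit or on Cy5 arrays alone, with Cul2 among them. The difference between days 6 and 2 called 0, but 1 in the single fit and on Cy5 or Cy3 arrays alone. It also called 1 with only genes that have all values or without genes of small spread, and 0 to 1 with an array left out. Where 1 was called, it was Cul2. From day 2 to day 11 in control flies, 0 members were called, but 4 on Cy5 and 3 on Cy3 arrays alone, where 1902 and 2232 of all genes were called. The listed identifiers called at 1 or more days numbered 4, with 19 in the single fit, 16 on Cy5 and 11 on Cy3 arrays alone, 2 without moderated variances, 7 after quantile normalization, 2 at a threshold of 0.01 and 2 to 9 with an array left out. The single fit counts both dyes as replicates, so it takes 6 arrays a condition where the extracts were 3, and the single dyes drop the demand that both pass. The cause of the other shifts was not tested. Over all genes, the single fit called 559, 717 and 1351 at days 2, 6 and 11 where the report gives 131, 221 and 163, and the fit of only the conditions compared 45, 482 and 0. Quantile normalization called 199, 336 and 63 at these days, moved the share of higher calls from 27.5% to 13.3% for the difference between days 11 and 2, and from 42.5% to 55.9% for control flies between these days. Without 1 array the counts ran from 75 to 171, 157 to 189 and 65 to 459.

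Same-numbered arrays of both genotypes did not deviate together at every pair (correlations from -0.093 to 0.287), so the numbers were not taken to pair the samples. As a hint from the data alone, 10 of 18 control arrays correlated best with their own number, among them all 3 Cy3 arrays of day 11 (0.287, 0.186 and 0.151). The replicate block left all these counts as they were, with 1 member called at day 2, 1 at day 6, 0 at day 11 and 4 listed identifiers. Under the block, the difference of SkpB between days 11 and 2 (adjusted p = 0.0688) and the averages of Fem-1 (0.0536) and Myc (0.0683) were not called. The fit of only the conditions compared gives no value for averages or differences between days. Cul5 was dropped by the filter on spread.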
